A study of Chlamydomonas reinhardtii with 12 samples.

Results

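Transcripts of 7 enzymes that carry glutamate to protoporphyrin in the green alga Chlamydomonas reinhardtii were followed in 12 libraries of dark-grown cells. The 7 genes were chosen by identifier, among 17744 in the count table: a glutamyl-tRNA reductase (Cre07.g342150, called GTR1 here), GSA1 (Cre03.g158000), ALAD1 (Cre02.g091050), PBGD1 (Cre16.g663900), a uroporphyrinogen decarboxylase (Cre11.g467700, called UROD1 here), CPX1 (Cre02.g085450) and PPX1 (Cre09.g396300). The pairing of symbols with identifiers comes from general knowledge, since neither the table nor the RefSeq gene list holds symbols. WT libraries 1 to 6 were of the parental line CC-3403, kept for 4 weeks in the dark at 25 °C in acetate (TAP) medium with 10 µg/mL arginine. PDSKO libraries 1 to 6 were of lines derived from it by Cas9 ribonucleoprotein, in which phytoene desaturase, an early enzyme of carotenoid synthesis, was targeted. They were grown equally long and in the dark, in the medium without arginine, and were sorted by fluorescence before RNA was taken, so medium and sorting went with genotype. PDSKO 1 to 4 were of line E10, PDSKO 5 of A2 and PDSKO 6 of D2, so that A2 and D2 had 1 library each, and each line is a selected transformant. By their titles WT 1 to 3 go with E10 and WT 4 to 6 with A2 and D2, and these are called the first and the second title set. In the titles of WT 1 to 3 the strain number differs from that of the labelled parent. No marker of the labelled vegetative state was tested.

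WT libraries held 1393032 to 35992976 counts and PDSKO libraries 6279 to 475103, so 1 count stood for 0.0278 to 0.718 CPM (counts per 1000000 counts of the library) in WT and for 2.10 to 159 CPM in PDSKO. Cre07.g323800 alone took 43.3% of the A2 counts. The labels call the 6 parental samples independent but name no separate cultures for any line, and a p-value here speaks of the spread among these libraries, which may be technical. The targeted gene Cre12.g509650 (PDS1) stood between 21.6 and 113 CPM in the WT libraries. It had 0 counts in A2, where 3 counts would be 6.31 CPM, below every WT library. It also had 0 counts in D2, PDSKO 1 and PDSKO 3. There 3 counts would be 83.2, 74.2 and 166 CPM, within or above the WT range, so these zeros show no loss. PDSKO 2 and PDSKO 4 had 2 counts each, or 319 and 122 CPM. Some identifiers were counted in only 1 of the title sets. Among identifiers above 5 CPM in each of WT 4 to 6, 309 had 0 counts in all of WT 1 to 3, and 306 of these have several RefSeq transcripts. Of the 6060 that were counted in WT 1 to 3 as well, 232 have several. All 7 genes have 1 RefSeq transcript and were counted in every WT library.

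In green algae and plants tetrapyrroles are built, mainly in the plastid, from glutamate attached to its tRNA. GTR1 reduces it and GSA1 turns the product into 5-aminolevulinate, and these first steps are where the pathway is chiefly controlled. ALAD1 joins aminolevulinate into the pyrrole porphobilinogen, PBGD1 links porphobilinogen into a linear chain, and, once the ring is closed, UROD1, CPX1 and PPX1 trim and oxidise it to protoporphyrin. There the path divides: Mg chelatase leads to chlorophyll and ferrochelatase to heme. Chlamydomonas can also make chlorophyll in darkness, through a light-independent protochlorophyllide reductase. In this alga CPX1 is a known target of the copper and low-oxygen response.

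The parental cultures held transcripts of all 7 steps. Counts came from transcript 3′ ends and were not divided by gene length. Together the 7 genes took between 502 and 1411 CPM of a WT library, lowest in WT 6 and highest in WT 1. In mean level over the 6 WT libraries the order was ALAD1 (189 ± 113 CPM, SD, n = 6), PBGD1 (133 ± 43.7), UROD1 (122 ± 56.5), GSA1 (114 ± 82.5), GTR1 (113 ± 83.2), CPX1 (106 ± 46.2) and PPX1 (16.7 ± 7.35). Only the last step of this order was larger than its spread: CPX1 stood above PPX1, the oxidase that completes protoporphyrin, in 6 of 6 libraries, by a mean of 2.62 ± 0.50 on the log2(CPM + 1) scale. Of the other neighbours, ALAD1 stood above PBGD1 in 4 of 6 libraries, PBGD1 above UROD1 in 3, UROD1 above GSA1 in 5, GSA1 above GTR1 in 3 and GTR1 above CPX1 in 3. The genes also varied unequally among parental libraries. The highest WT library exceeded the lowest 9.72-fold for GSA1, 9.22-fold for GTR1 and 5.34-fold for ALAD1. For UROD1 it was 3.61-fold, for PPX1 3.47-fold, for CPX1 2.43-fold and for PBGD1 2.12-fold. GSA1 was lowest in WT 3 and GTR1 in WT 6, and both were highest in WT 1.

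**Figure D1:**
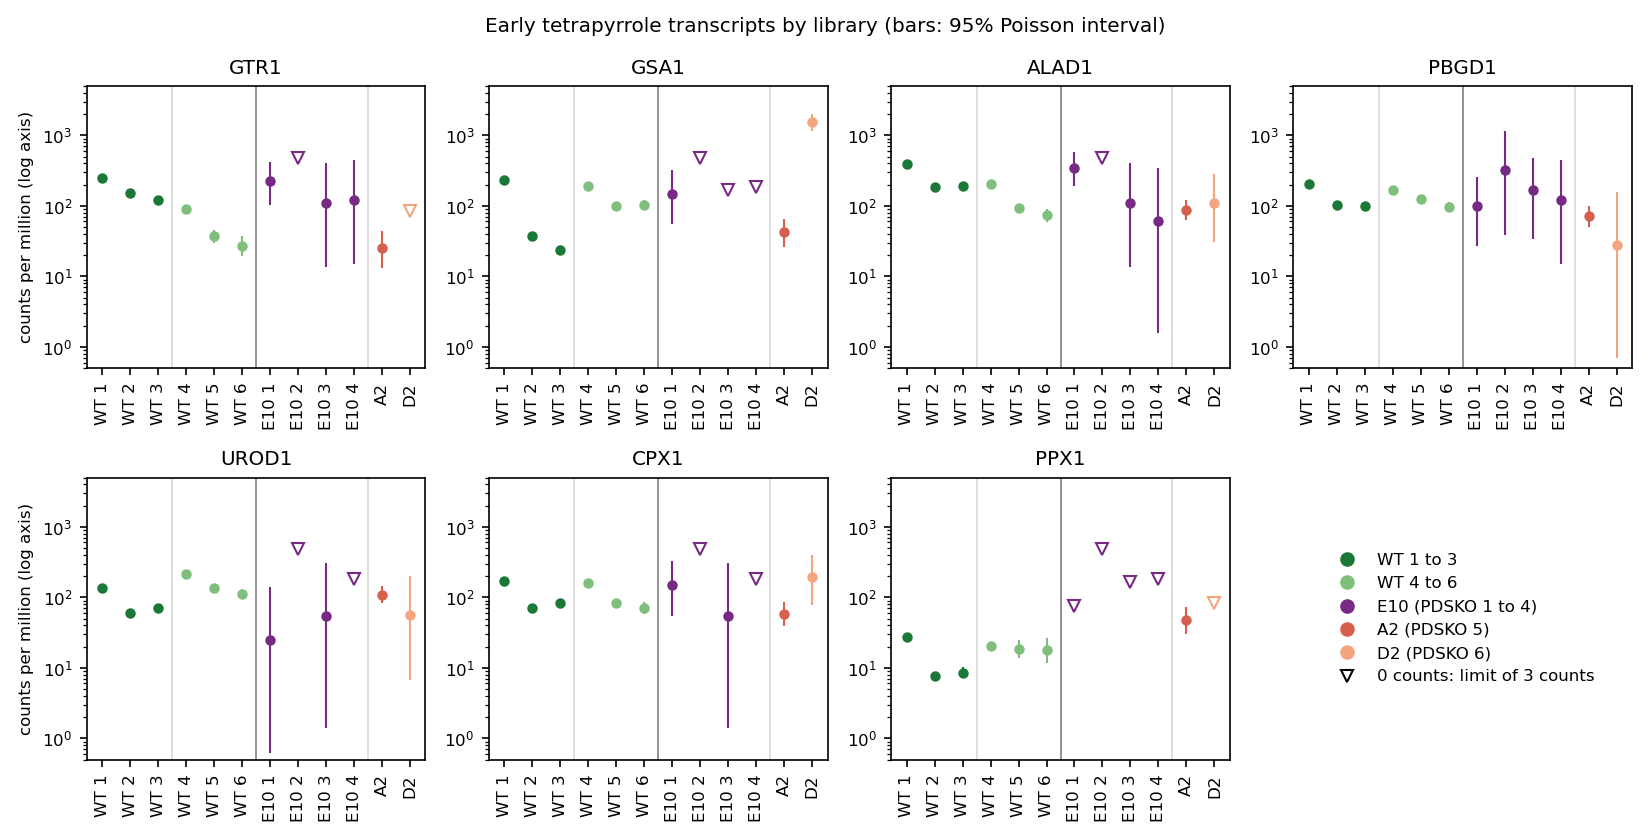
Level of each gene in every library, in CPM on a log axis, with 95% Poisson intervals that cover counting error only; open triangles mark libraries with 0 counts at the limit that 3 counts would give. GSA1 in D2 (1525 CPM) lies above every other library, GTR1 is lower in each of WT 4 to 6 than in each of WT 1 to 3, and most E10 values rest on a few counts.

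The balance between the first enzyme and UROD1 differed between the parental title sets. GTR1 stood at 252, 154 and 121 CPM in WT 1, 2 and 3 and at 90.3, 36.9 and 27.3 CPM in WT 4, 5 and 6. These values did not overlap, but the share of all identifiers without overlap was not counted. UROD1, which takes carboxyl groups off the closed ring, stood at 135, 60.3 and 71.1 CPM in WT 1, 2 and 3 and at 218, 133 and 113 CPM in WT 4, 5 and 6. WT 1 lay within the range of the second set for UROD1. WT 4 to 6 differed from WT 1 to 3 by a log2 fold change of -1.50 ± 0.51 (SE) for GTR1, where edgeR gave an adjusted p of 0.0942. For UROD1 it was 1.09 ± 0.47, with an adjusted p of 0.180. Over 14 other settings the adjusted p of GTR1 ran from 0.00985 to 0.303 and that of UROD1 from 0.00218 to 0.822. The 5 other genes had log2 fold changes between -0.78 (ALAD1) and 0.68 (PPX1) with adjusted p from 0.372 up. edgeR thus called 0 of the 7 genes, where it called 11.1% of 13040 identifiers, 9.31% as higher in WT 4 to 6 and 1.82% as lower. These were 1214 higher and 237 lower, and with library totals only 1045 and 400. At an unadjusted p under 0.05 it had 2 of 7 (GTR1 and UROD1), against 25.4% of all. DESeq2 called GTR1 (adjusted p = 0.0368) and limma-voom none. Without identifiers of several RefSeq transcripts the share called fell to 2.22% of 12222, and GTR1 had an adjusted p of 0.149.

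Set against each other within a library, where no scaling enters, GTR1 and UROD1 separated the title sets. GTR1 took 65.0%, 71.8% and 62.9% of the counts of the pair in WT 1, 2 and 3, and 29.3%, 21.7% and 19.5% in WT 4, 5 and 6. The set means were 66.6 ± 4.65% and 23.5 ± 5.17% (SD, n = 3 each). In the knockouts A2 had 12 GTR1 and 52 UROD1 counts, or 18.8% GTR1 (exact 95% interval 10.1 to 30.5%), and the 4 E10 libraries together had 13 and 2, or 86.7% (59.5 to 98.3%). A2 thus lay near WT 4 to 6 and summed E10 on the side of WT 1 to 3. The E10 value rests mostly on PDSKO 1, with 9 GTR1 counts and 1 UROD1 count. PDSKO 3 had 2 and 1, PDSKO 4 had 2 and 0, and PDSKO 2 had 0 of both. The interval leaves out the spread among these libraries. D2 had 0 and 2 counts, too few to place it. This pair was chosen after the values were seen. It holds the genes with the lowest and the highest log2 fold change of the 7 between the title sets. The choice thus favoured a separation, and how many gene pairs separate the sets was not counted. Exact permutation of 3 against 3 libraries cannot give a p below 0.1.

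**Figure D2:**
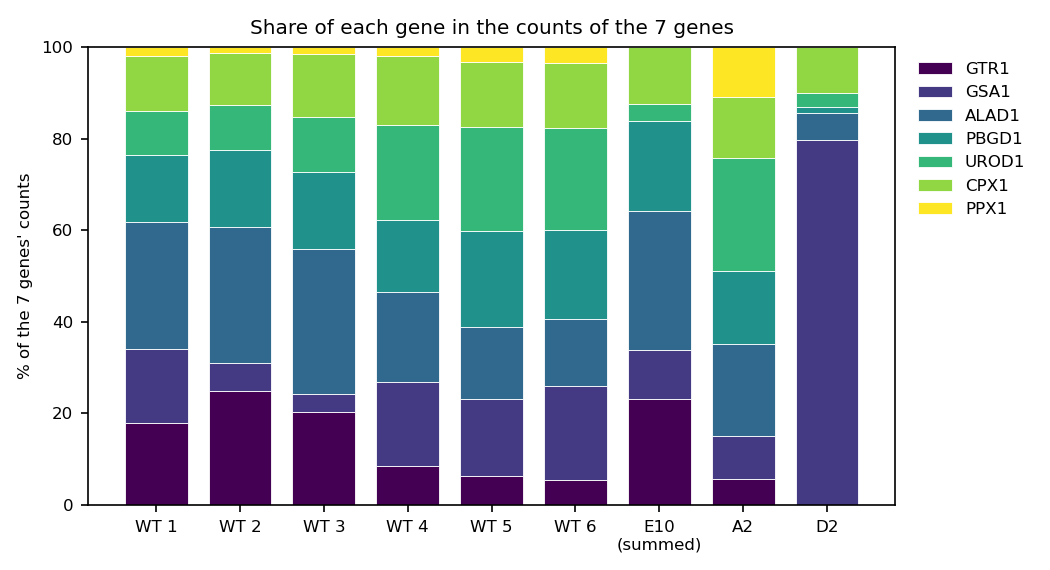
Share of each gene in the counts of the 7 genes, in percent, for the 6 WT libraries, the 4 E10 libraries summed, A2 and D2. GTR1 takes 17.8 to 24.9% in WT 1 to 3 and 5.44 to 8.59% in WT 4 to 6, and GSA1 takes 79.7% in D2.

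Within the first title set WT 1 stood apart from WT 2 and WT 3, most of all in GSA1, the aminotransferase that makes aminolevulinate. GSA1 was at 231 CPM in WT 1, 37.3 in WT 2 and 23.7 in WT 3, and at 192, 99.1 and 103 CPM in WT 4, 5 and 6. WT 2 and WT 3 were thus the lowest parental libraries for GSA1, and WT 1 the highest. WT 1 exceeded WT 2 and WT 3 by 1.64- to 3.47-fold in the other 6 genes. Light-harvesting transcripts, which encode the chlorophyll-binding antenna, were also highest in WT 1. Their 21 identifiers took 13.6% of the counts in WT 1, 0.427% in WT 2 and 0.391% in WT 3. In WT 4 to 6 they took 7.80 to 9.22%. The 6 genes other than GSA1 did not follow that order, with a sum of 579 and 574 CPM in WT 2 and WT 3. Their sum was 488 and 398 CPM in WT 5 and WT 6, and 1181 and 860 CPM in WT 1 and WT 4. Cytochrome c6 (Cre16.g651050, CYC6), a marker of the copper and low-oxygen response, had 1025 counts (34.1 CPM) in WT 1 and 0 in the other 5 WT libraries. CPX1, a target of the same response, was at 171 CPM in WT 1, 70.5 in WT 2 and 82.9 in WT 3, and at 160, 83.8 and 70.4 CPM in WT 4, 5 and 6. WT 4, with 0 CYC6 counts, was close to WT 1 in CPX1. The iron hydrogenase HYDA1, of the low-oxygen response too, went the other way from CYC6 within the first set. It was at 50.0 CPM in WT 1, 91.1 in WT 2 and 96.3 in WT 3. The part of antenna level or of copper and oxygen supply in these levels was not tested. With WT 1 left out of the comparison of title sets, GSA1 (log2 fold change 2.59), UROD1 (1.72) and PPX1 (1.73) were called higher in WT 4 to 6, with edgeR adjusted p of 0.000376, 0.00218 and 0.0188. With WT 2 and WT 3 left out together, GTR1 was called lower (-2.22, adjusted p = 0.00985) and GSA1 had -0.73.

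PDSKO libraries were first compared with all WT libraries, a comparison in which genotype, medium and sorting differ together. No difference in the 7 genes passed the test. Of the 6 genes with enough counts to be tested, 5 had a negative log2 fold change. Their median was -0.63, against -0.38 over all 4915 identifiers tested, of which 61.7% were negative. The first gene, GTR1, had -0.79 ± 0.76 (SE) and ALAD1 -0.63 ± 0.71. The later genes PBGD1, UROD1 and CPX1 had -0.63 ± 0.64, -0.88 ± 0.76 and -0.35 ± 0.72. GSA1 alone was positive, with 1.31 ± 0.98. PPX1 did not reach the count filter. edgeR called 0 of the 6 genes, and it called 0% of all identifiers. At an unadjusted p under 0.05 it had 0 of 6, against 20.5% of all, and DESeq2 and limma-voom called none either. Adjusted p ran from 0.453 (GSA1) to 0.817 (CPX1). The 95% intervals were wide, from -1.94 to 0.67 for PBGD1 and from -0.71 to 3.32 for GSA1. With 1 library left out UROD1 reached -2.85 (without A2, edgeR adjusted p = 0.0679), GTR1 -2.05 and ALAD1 -1.64 (both without PDSKO 1), and GSA1 -1.72 (without D2). Under RLE scaling the median over all identifiers became 0.29, and PBGD1 and CPX1 were then positive, at 0.018 and 0.29.

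**Figure D3:**
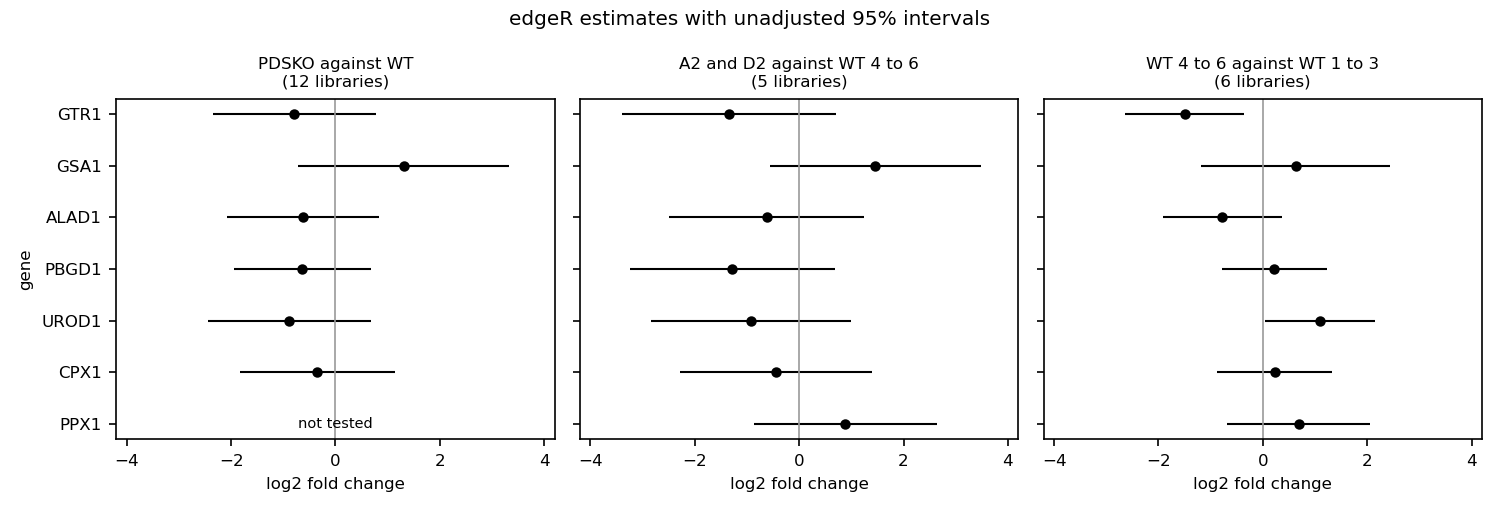
Log2 fold changes from edgeR with unadjusted 95% intervals for each gene in 3 comparisons. Intervals include 0 except those of GTR1 (-2.64 to -0.36) and UROD1 (0.04 to 2.14) between the parental title sets.

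Lines A2 and D2 were then compared with the second title set of the parent. Transcripts of the pathway were counted in both lines, and the largest ratio to the parent was that of GSA1 in D2. GSA1 was at 1525 CPM in D2 (55 counts, Poisson 95% interval 1149 to 1985). In A2 it was at 42.1 CPM (20 counts, 25.7 to 65.0), and in WT 4, 5 and 6 it was at 192, 99.1 and 103 CPM. D2 thus stood 11.6-fold above the mean of WT 4 to 6 (132 ± 52.6 CPM, SD, n = 3) and 6.61-fold above the highest of all WT libraries, while A2 stood below every library of WT 4 to 6. GSA1 ranked 128 among 3786 identifiers detected in D2, and made up 79.7% of the counts of the 7 genes there (exact 95% interval 68.3 to 88.4%). The other 6 genes together were at 388 CPM in D2 (14 counts) and at 582 ± 245 CPM in WT 4 to 6 (SD, n = 3), with single WT libraries down to 398. D2 stood 4-fold or more above the mean of WT 4 to 6 for 2.44% of the 1190 identifiers whose parental mean was at or above the level of 3 counts in D2. Of the 5 genes of the pathway in that set GSA1 alone was past it. PBGD1, with 1 count in D2 (27.7 CPM, interval 0.702 to 155), was past 4-fold lower, as were 23.9% of all. Identifiers with 0 counts were set at the limit of 3 counts, 83.2 CPM. They therefore passed 4-fold lower less readily than a gene with 1 count. Light-harvesting transcripts took 1.72% of the counts in D2 and 0.218% in A2, against 7.80 to 9.22% in WT 4 to 6, and their part in these levels was not tested. D2 is 1 library, and no source used here tells whether reads sharing a molecular identifier were counted once. In such bulk samples fewer cells with a transcript and less of it per cell cannot be told apart.

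In A2, the deepest knockout library, 6 of the 7 genes stood between 0.320 and 0.715 of the mean of WT 4 to 6. A2 had GTR1 at 25.3 CPM, ALAD1 at 88.4, PBGD1 at 71.6, UROD1 at 109 and CPX1 at 58.9 CPM. GSA1 lay below all 3 parental libraries together with its counting interval. GTR1, PBGD1, UROD1 and CPX1 lay below them too, but their intervals reached into the parental range, and ALAD1 lay within it. The median log2 ratio of A2 to the parental mean was -0.83 for the 7 genes and -0.73 over all 7828 identifiers compared. Values below the parent were thus common in A2. How many of all identifiers lay below all 3 parental libraries was not counted. With Cre07.g323800 left out of the totals these 6 ratios ran from 0.544 (GSA1) to 1.22 (ALAD1). GSA1, at 74.2 CPM, was the only 1 of the 7 still below all 3 parental libraries as deposited. No counting interval was computed on these totals, so whether that of GSA1 also stayed below them is not known. PPX1 went the other way. It was at 48.4 CPM in A2 (23 counts, interval 30.7 to 72.6) and at 20.5, 18.6 and 17.9 CPM in WT 4, 5 and 6, a ratio of 2.55, or 4.31 without Cre07.g323800. As a share of the counts of the 7 genes PPX1 was 10.9% in A2 (7.04 to 15.9%) and 1.95 to 3.58% in WT 4 to 6. None of the 7 genes was 4-fold or more from the parental mean in A2, where 6.44% of 7828 identifiers were higher and 23.4% lower by that much. Without Cre07.g323800 PPX1 was past 4-fold higher, as were 11.7% of 5875 identifiers.

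Over A2 and D2 together edgeR called 0 of the 7 genes, and 10.9% of 8042 identifiers, 3.38% as higher and 7.49% as lower. These were 272 higher and 602 lower, and with RLE scaling 438 and 342. At an unadjusted p under 0.05 it had 0 of 7, against 34.2% of all, and DESeq2 and limma-voom called none. The log2 fold changes were negative for GTR1 (-1.34 ± 0.98, SE), ALAD1 (-0.62 ± 0.89), PBGD1 (-1.28 ± 0.94), UROD1 (-0.93 ± 0.91) and CPX1 (-0.44 ± 0.88), and positive for GSA1 (1.46 ± 0.97) and PPX1 (0.89 ± 0.84). Their median was -0.62, against -0.92 over all identifiers, with adjusted p from 0.290 to 0.756. For GSA1 the fitted value depended on which line was in. Without A2 it was called higher (2.54, edgeR adjusted p = 0.00340), and without D2 it had -1.64 (adjusted p = 0.0632). Each of those fits holds a single knockout library, assumed to vary as the WT libraries do.

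Line E10 was set against WT 1 to 3. None of the 7 genes reached the count filter, and the 449 identifiers that did gave 0% called. Summed over the 4 libraries, E10 had 13 GTR1, 6 GSA1, 17 ALAD1, 11 PBGD1, 2 UROD1, 7 CPX1 and 0 PPX1 counts of 81142. That is 160 CPM for GTR1 (Poisson 95% interval 85.3 to 274) and 210 CPM for ALAD1 (122 to 335), against 175 ± 68.0 and 254 ± 118 CPM (SD, n = 3) in WT 1 to 3. UROD1 had the lowest ratio to WT, 0.277, with 24.6 CPM (2.99 to 89.0) where WT 1, 2 and 3 had 135, 60.3 and 71.1. Zero PPX1 counts allow up to 37.0 CPM, above all 3 WT libraries. The intervals of the 6 counted genes overlapped the range of WT 1 to 3, so no difference was detectable at this depth. None of the 6 was 4-fold or more from the WT mean in E10, where 1.99% of 2607 identifiers were higher and 3.34% lower by that much. In a fit with the 4 libraries summed into 1, edgeR called none of the 7 genes, with adjusted p from 0.821 up. The single summed library was there assumed to vary as WT 1 to 3 do, and the 95% interval for GTR1 ran from -2.67 to 1.46 on the log2 scale. Within E10 PDSKO 1, the deepest library, held 40 of the 56 counts of the pathway, and it also had the highest light-harvesting share, 8.17% against 0.207 to 0.649% in PDSKO 2 to 4.

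Whether the knockout difference itself differed between the title sets was tested as an interaction over all 12 libraries. edgeR called 0 of the 7 genes and 0.0111% of 9044 identifiers, and DESeq2 and limma-voom called none of the 7. At an unadjusted p under 0.05 it had 2 of 7 (GSA1 and PPX1), against 15.99% of all. For GSA1 the second set exceeded the first by a log2 difference of 3.71 ± 1.69 (SE, edgeR adjusted p = 0.287), and for UROD1 by 2.24 ± 1.39 (adjusted p = 0.414). The GSA1 value was 0.21 without D2, 1.70 without WT 1 and no measured fold without PDSKO 1, the only E10 library with GSA1 counts, and that of UROD1 was 0.61 without A2. PPX1 had 0 counts in all 4 E10 libraries, so its estimate is no measured fold.

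Beyond protoporphyrin, transcripts of the chlorophyll branch were lower in A2 by more than those of the early steps. Of 12 identifiers 7 stood 4-fold or more below the mean of WT 4 to 6: CHLI1 (Cre06.g306300, a Mg chelatase subunit), CHLM1 (Cre12.g498550, the Mg protoporphyrin methyltransferase), CRD1 (Cre07.g346050) and CTH1 (Cre12.g510050, both of the aerobic cyclase), POR1 (Cre01.g015350, the light-dependent protochlorophyllide reductase), CHLG1 (Cre06.g294750, chlorophyll synthase) and CAO1 (Cre01.g043350, which makes chlorophyll b). Over all identifiers 23.4% were lower by that much. The same 7 were past that fold without Cre07.g323800, as were 16.8% of all. CTH1 was at 33.7 CPM in A2 and at 482, 583 and 454 CPM in WT 4, 5 and 6. POR1 was at 33.7 CPM in A2 and at 497, 272 and 156 CPM in the 3 WT libraries. The branch point subunit CHLH1 (Cre07.g325500), at 118 CPM in A2 and 279, 103 and 33.7 CPM in WT 4, 5 and 6, lay within the parental range. In D2, 5 identifiers of the branch had a parental mean at or above the level of 3 counts, and none was past 4-fold. Of all identifiers in that set 23.9% were lower by that much and 2.44% higher. CHLH1 and CAO1 had 0 counts in D2 and were set at the limit of 83.2 CPM, so they could not pass 4-fold lower. CHLI2, CTH1 and POR1 stood 1.42-, 2.03- and 3.70-fold below the parental mean, on 3, 9 and 3 counts. Whether D2 shares the A2 pattern thus cannot be told. The median log2 ratio of A2 to its parental mean was -3.23 for the branch, -0.83 for the 7 early genes and -0.73 for all identifiers. The difference between these 2 groups of genes was not itself tested. A2 is 1 library, and summed E10, read mostly from PDSKO 1, did not show this pattern. With the 4 E10 libraries summed, 7 branch identifiers had a mean in WT 1 to 3 at or above the level of 3 counts. None of them was 4-fold or more from that mean, where 3.34% of 2607 identifiers were lower and 1.99% higher. Their median log2 ratio was -0.24, as was that of all identifiers, on 1 (CHLG1) to 27 (POR1) counts each. PDSKO 1 held 23 of 27 counts of POR1, 11 of 20 of CTH1, 5 of 9 of CAO1 and 6 of 7 of CHLH1 and of CHLI1. It held 0 of 3 of CHLD1 and 0 of 1 of CHLG1. PDSKO 2 to 4 are thus hardly represented in this sum.

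**Figure D4:**
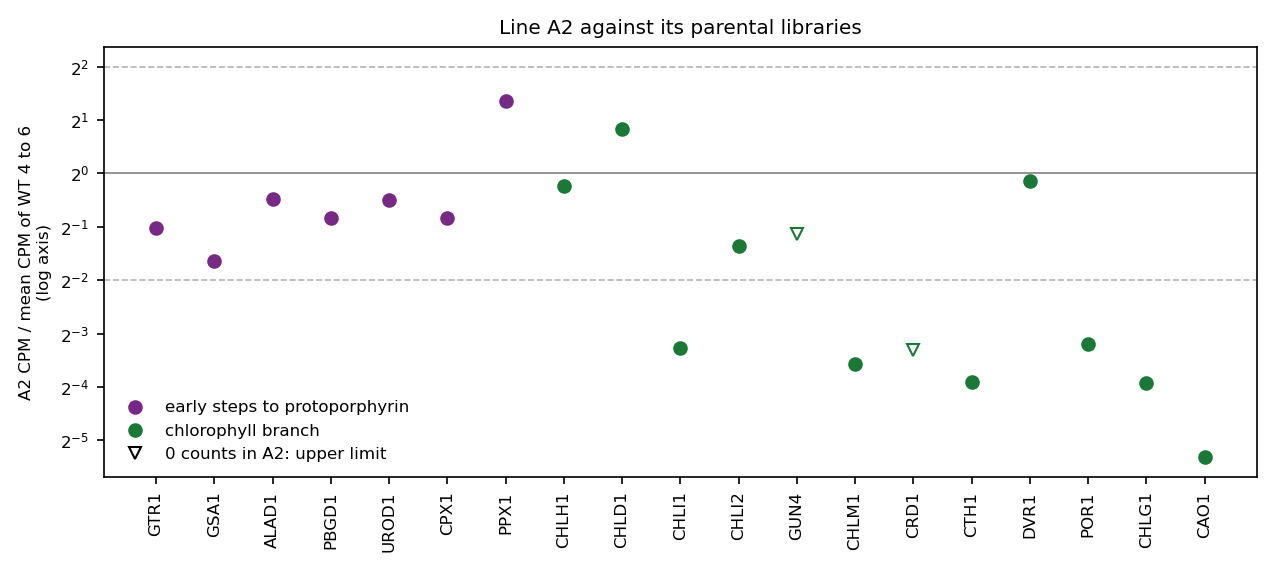
Ratio of the A2 level to the mean of WT 4 to 6, on a log2 axis, for the 7 early genes and 12 genes of the chlorophyll branch; dashed lines mark 4-fold and open triangles mark 0 counts in A2. The early genes lie between 0.320 and 2.55, and 7 of the branch lie below the lower line.

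In the edgeR fit of A2 and D2 against WT 4 to 6, 1 of the 12 branch identifiers fell and none rose, where 7.49% of all identifiers were called lower. The median log2 fold change was -2.55 over the 12 and -0.92 over all. The 1 that fell was CAO1, with 1 count in A2, 0 in D2 and 115, 81.2 and 56.0 CPM in WT 4, 5 and 6 (log2 fold change -5.41 ± 1.39, SE, adjusted p = 0.0265). Its call ended in 6 of 14 other settings. In edgeR these were the fits without WT 4 (adjusted p = 0.0970), WT 5 (0.124) or WT 6 (0.0752) and with a replicate block (0.832). It also ended with limma-voom (adjusted p = 0.0993) and without A2. In the fit without A2, D2 stood alone at 0 counts, so its log2 fold change of -11.5 is no measured fold. CHLM1, CHLG1, CTH1 and POR1 had adjusted p of 0.0513 to 0.0586. Over all 12 libraries none of 11 branch identifiers passed, and their median was -1.22. CHLG1 had the smallest p (-2.99 ± 0.94, adjusted p = 0.0921), followed by CTH1 (-1.66 ± 0.69, 0.171) and POR1 (-1.39 ± 0.77, 0.309). Between the parental title sets CHLI2 (Cre12.g510800), the other CHLI form, was called higher in WT 4 to 6, with 101, 137 and 117 CPM against 55.8, 26.8 and 27.5 CPM (log2 fold change 2.04 ± 0.49, edgeR adjusted p = 0.0232). This call ended without any 1 of WT 2, 3, 5 or 6 (adjusted p 0.0793 to 0.107), without WT 2 and WT 3 together (0.192) and without identifiers of several RefSeq transcripts (0.0635). CRD1 had 0 of 80275183 counts in WT 1 to 3 and 37.3 to 92.8 CPM in WT 4 to 6. CRD1 is 1 of the 306 identifiers with several RefSeq transcripts that were at 0 in WT 1 to 3, so its level there cannot be read.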

How the data were processed

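CEL-Seq barcodes RNA during reverse transcription and reads the 3′ end of transcripts. Raw counts per gene identifier were deposited. Per the labels' protocols they come from BWA MEM alignment of read 2 against the 281_v5.6 transcriptome, with multi-mapping reads dropped, and from the MapAndGo script. BWA and edgeR are the tools in the submitters' processing notes. Columns were matched to samples by title, and 0 columns were left unmapped. The main test of all identifiers was that of edgeR 4.0.16, run in R 4.3.3 (filterByExpr, TMM, glmQLFit and glmQLFTest, two-sided, Benjamini-Hochberg adjustment at 0.05), and the steps were tested on simulated data. Standard errors are the log2 fold change over the root of F. Alternatives used DESeq2 1.42.0, limma-voom (limma 3.58.1), other scalings, filters and features, a replicate block, and libraries left out. CPM uses all counts of a library. Where a gene had 0 counts the limit is 3 counts. Python 3.11.15 with scipy 1.17.1 gave exact intervals, which cover counting error only. RefSeq (assembly v5.5) matched 17742 identifiers and was used for transcripts per gene, and differs from the authors' annotation. Genes named beside the 7 are members of a chlorophyll branch list and a copper and low-oxygen list, PDS1, a heme oxygenase, and the 3 identifiers most like the 7. Branch genes are named by smallest p, by passing, or, in A2 and for CHLH1, after their values were seen. The members and lists were chosen with earlier results of these data known. The light-harvesting list, the 4-fold counts and the GTR1 to UROD1 share were added after the data were seen.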

Additional observations from a re-analysis of the deposited data

Results flagged for a closer look

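Of 20 groups of values screened (the 7 genes over WT, PDSKO and E10), 4 had a library far from the others. The rule was the 95% limit of Dixon's ratio, which about 1 in 20 groups of normally distributed values pass. CPM values from few counts at unequal depth are not such values, so 4 of 20 cannot be set against that rate. A group with counts in only 1 library always passes, as did PPX1 in PDSKO and GSA1 in E10. The E10 libraries are also PDSKO libraries, and depth differs among them. GSA1 at 1525 CPM in D2 stood far above the other PDSKO libraries, which had 0 to 148 CPM. ALAD1 at 346 CPM in PDSKO 1 rested on 14 counts, with the other PDSKO libraries between 0 and 111 CPM. PPX1 at 48.4 CPM in A2 was set against 0 counts in the 5 other PDSKO libraries, whose limits of 74.2 to 478 CPM lie above that value. GSA1 at 148 CPM in PDSKO 1 rested on 6 counts, with 0 in the 3 other E10 libraries and limits there of 166 to 478 CPM.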

How the results depend on the processing

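Depth limits every PDSKO value: 1 count is 2.10 CPM in A2 and 24.7 CPM or more in the others. Of 382 recomputed values of the 7 genes, 348 kept their direction and side of the threshold, 6 became called and 28 changed sign. None was called as reported, so none could lose a call. Replicate numbers could not be taken to pair the libraries. The labels tie them to nothing shared, and same-numbered deviations over 3686 identifiers correlated at 0.16 to 0.49 for 5 numbers but at -0.12 for number 4, while 3 of 6 WT and 2 of 6 PDSKO libraries correlated best with their own number. With a replicate block edgeR called 69 identifiers over 12 libraries, 18 for A2 and D2, 0 for E10 and none of the 7 genes, and the adjusted p of CAO1 for A2 and D2 was 0.832. The causes of the shifts below were not tested.

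Identifiers called over 12 libraries (0 reported) were 164 with RLE, 4 with library totals only, 1257 with no filter, 545 with a stricter filter and 349 with DESeq2. They were 1 with E10 summed and 11 without WT 2 and WT 3. For A2 and D2 (874 reported) they were 512 with totals, 1470 with no filter and 459 with limma-voom. For E10 (0 reported) they were 3 with the stricter filter and 1 with DESeq2. Between the parental title sets (1451 reported) they were 2236 with DESeq2 and 271 without identifiers of several RefSeq transcripts. For the interaction (1 reported) they were 0 with RLE, 42 with no filter, 665 with DESeq2, 787 with limma-voom, 43 without WT 2 and WT 3 and 0 without identifiers of several transcripts. Leaving out identifiers by their transcripts, and WT 2 and WT 3 from the title sets or the interaction, was chosen after seeing the data. Leaving out 1 library gave 0 to 632 over 12 libraries (most without PDSKO 1), 13 (without WT 4) to 2486 (without D2) for A2 and D2, 0 to 1 for E10, 1119 to 3288 (without WT 1) between title sets and 0 to 243 (without WT 1) for the interaction. The A2 and D2 count was 71 without WT 5 and 127 without WT 6.

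Of the 7 genes, DESeq2 and the fit without WT 2 and WT 3 each called 1 between title sets (GTR1, -1.51 and -2.22). Leaving out 1 library called 0 to 1 of them for A2 and D2 and 0 to 3 between title sets. Over 12 libraries GSA1 had -0.056 with no filter, -0.23 with limma-voom and -0.67 with the replicate block, and -1.72 (without D2) to 1.78 with 1 library out. ALAD1 had 0.017 with DESeq2, PBGD1 0.018 with RLE and 0.040 with DESeq2, and CPX1 0.29 with RLE and 0.31 with DESeq2. For A2 and D2 CPX1 had 0.12 with RLE, 0.15 with totals and 0.094 with DESeq2. There, with 1 library out, PBGD1 ran from -3.22 to -0.69, UROD1 from -2.48 to -0.23 (both lowest without A2), CPX1 from -0.82 to 0.48, ALAD1 from -1.13 to 0.35, GSA1 from -1.64 to 2.54 and PPX1 from -9.41, where D2 at 0 counts stood alone and the value is no fold, to 1.35. Between title sets totals gave PBGD1 -0.086 and CPX1 -0.042, and without WT 2 and WT 3 GSA1 had -0.73, PBGD1 -0.58, CPX1 -0.63 and PPX1 -0.40. With 1 library out PBGD1 ran from -0.078 to 0.82, CPX1 from -0.14 to 0.92, GSA1 from 0.09 to 2.59, UROD1 from 0.76 to 1.72, PPX1 from 0.27 to 1.73 and GTR1 from -2.08 to -0.95. The share of GTR1 in its pair with UROD1 differed between title sets (WT 4 to 6 minus WT 1 to 3) by -43.1 percentage points, and by -46.0 to -40.5 with 1 library out.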

Other observations

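HMOX1 (Cre10.g423500), the heme oxygenase that opens the heme ring, was lowest in WT 1, where all 7 genes were highest among WT 1 to 3. It was at 158 CPM in WT 1, 342 in WT 2 and 408 in WT 3, and at 436, 405 and 381 CPM in WT 4, 5 and 6. A2 had 303 CPM (144 counts) and D2 had 0 counts, which allows up to 83.2 CPM, at least 4.90-fold below the 408 ± 27.7 CPM (SD, n = 3) of WT 4 to 6. HYDA1 (Cre03.g199800), an iron hydrogenase of the low-oxygen response, was at 50.0, 91.1 and 96.3 CPM in WT 1, 2 and 3, at 48.6, 61.9 and 48.8 CPM in WT 4, 5 and 6, and at 128 CPM in A2 (61 counts). Neither passed the edgeR test in any comparison it entered.

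Over the 6 WT libraries the pairs among the 7 genes had Pearson correlations of log2(CPM + 1) from -0.22 to 0.96, with a median of 0.71 over 21 pairs, a description of libraries that share depth and title set. Among 3729 other identifiers with 20 or more counts in every WT library, the 3 with the pattern most like the mean of the 7 were Cre12.g531450 (r = 0.992), Cre06.g269050 (0.990) and Cre02.g118600 (0.988), which the sources used here do not name.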
